A study of Homo sapiens with 38 samples.

Results

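RNA expression was compared between 2 conjugates of the LSD1 inhibitor NCD38. The cells were RKO, an established line from a human colorectal cancer. The conjugates were NCD38-β2P4 (the P4 conjugate) and NCD38-β2PIPP (the PIPP conjugate). The comparison used the 4 RNA libraries of these treatments, P4 and PIPP on day 30 and P4 and PIPP on day 4, out of 8 RNA libraries and 38 samples in the series. There was 1 library per conjugate and day, and no DMSO or NCD38 library entered the ratios. Medium with compound was renewed during the long treatment. The sample labels give 2 µM for both days, while the written methods give another unit of dose for day 4.

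LSD1 removes methyl groups from lysine 4 of histone H3 and works in corepressor complexes with CoREST and histone deacetylases. Pyrrole-imidazole polyamides are small molecules that lie in the minor groove of DNA and read its bases. The polyamide of the P4 conjugate is made of pyrroles only, and in the PIPP conjugate one of them is replaced by an imidazole. The first was designed for stretches of A and T, the second for a CG with A or T on either side. Both are joined to NCD38 through a linker of β-alanines, so the conjugates differ by this change in the polyamide.

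Values were FPKM, fragments scaled by transcript length and by the mapped fragments of the library, as estimated by the authors. Ratios were taken on log2(FPKM + 1), P4 over PIPP, and centred on the median of the 10865 genes tested, which had on average 1 FPKM or more across the 8 RNA libraries. Before centring, that median was 0.07 on day 30 and -0.10 on day 4. The step of FPKM that 1 fragment is worth gave an estimated depth of 12500000 fragments for P4 and 22800000 for PIPP on day 30, and of 12800000 and 13700000 on day 4. Another estimate used the most frequent ratio of low FPKM between the 2 libraries of a day. It put the PIPP library at 1.84 times the fragments of the P4 library on day 30 and 1.11 times on day 4. Both estimates rest on low FPKM in the same libraries, so they are not independent. The cells carried few markers of colorectal epithelium. KRT8 and KRT18 were above 9 FPKM in all 4 libraries and CDX2 above 8, whereas VIL1, KRT20 and CDX1 were listed at 0 or near 0. Of 15 markers of blood, endothelium, fibroblasts and nerve, 13 were below 1 FPKM in all 4 libraries, and ACTA2 and TUBB3 were above.

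Few genes separated the conjugates on both days. In a linear model with day as a block (limma, 1 residual degree of freedom), 14 of 10865 genes passed an adjusted p of 0.05, which is 0.129% of those tested. Of these, 4 (0.0368%) were higher with P4 and 10 (0.092%) with PIPP. At an unadjusted p under 0.05 there were 224 genes, 2.06%. The 2 days are the only repeats. The spread of a gene in this test combines its own change between days (1 degree of freedom) with a spread borrowed from all genes (8.55 prior degrees of freedom), and an exact permutation of the conjugates within days could not go below p = 0.5. By size alone, 11 genes (0.101%) were at least 1.5-fold higher with P4 on both days and 27 (0.249%) with PIPP. On day 30 alone the counts were 156 (1.44%) and 206 (1.9%), and on day 4 alone 154 (1.42%) and 564 (5.19%). Ratios were above 0 on both days in 19.3% of the genes tested, below 0 on both in 19.3%, above 0 on day 30 only in 30.7% and above 0 on day 4 only in 30.7%.

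**Figure D1:**
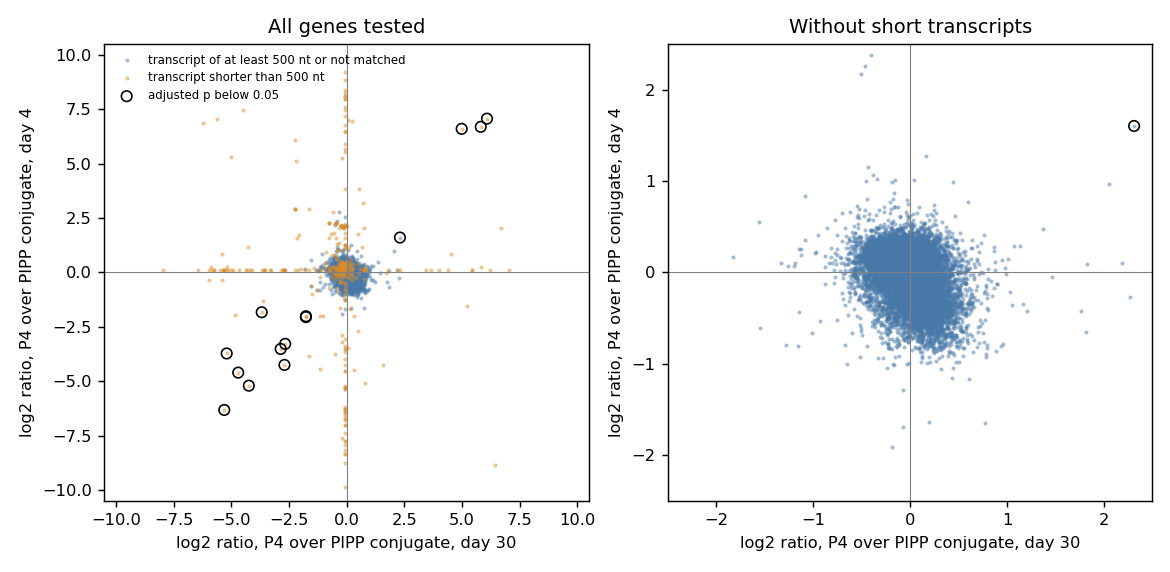
Centred log2 ratio of FPKM + 1 (P4 over PIPP conjugate) on day 30 against day 4, 1 point per gene, for all 10865 genes tested and without the 409 whose transcript is shorter than 500 nt. Circles mark the 14 genes with an adjusted p below 0.05. Many short transcripts with large ratios lie along the axes, with a difference on 1 day and little on the other, and the 13 that passed lie off them. The cloud of longer genes leans from upper left to lower right.

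The genes that passed were short RNAs, with 1 exception. Of 409 tested entries with a transcript under 500 nt, 13 passed, 3 higher with P4 and 10 with PIPP, against 0 of 9769 with a longer transcript and 1 of 687 without a matched transcript. At an unadjusted p under 0.05 (limma) there were 166 short entries (40.6%), 30 longer ones (0.307%) and 28 unmatched ones (4.08%). The SD of the ratios was 2.01 on day 30 and 2.97 on day 4 over short entries, against 0.24 and 0.28 over longer ones, so the spread borrowed from all genes is narrower than that of the short class. None of the 14 passed without centring or without the block on day, with differences of about the same size. All 13 were listed at an FPKM of exactly 0 in at least 1 of the 4 libraries, as were 57.2% of all short entries and 0.133% of the longer ones. The libraries were made from polyadenylated RNA, so these values are not a measure of mature microRNAs or small nucleolar RNAs.

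MIR1909, a microRNA hairpin (chr19:1816158-1816237, GRCh37, minus strand) annotated within an exon of REXO1, was listed at 70.3 FPKM with P4 and 0 with PIPP on day 30, and at 124 and 0 on day 4 (adjusted p = 3.44e-06, limma). MIR196B, a hairpin of the HOXA cluster (chr7:27209099-27209183, minus strand, in an exon of HOXA9), was listed at 58.1 and 0 on day 30 and at 95.4 and 0 on day 4 (adjusted p = 3.44e-06, limma). SNORD46, a small nucleolar RNA, was listed at 32.3 and 0 on day 30 and at 89.5 and 0 on day 4 (adjusted p = 3.33e-05, limma). In these 3 entries both PIPP libraries were at 0 and both P4 libraries were not, so no fold change is given.

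The opposite pattern was seen for 8 entries, which both P4 libraries listed at 0. MIR659 lies in an intron of ANKRD54 (chr22:38243685-38243781) and MIR637 in an exon of DAPK3 (chr19:3961412-3961510), both on the minus strand. MIR659 was at 36.6 FPKM with PIPP on day 30 and at 84.9 on day 4 (adjusted p = 8.22e-06, limma), MIR3911 at 23.7 and 25.1 (adjusted p = 9.44e-06), and MIR637 at 16.9 and 38.6 (adjusted p = 3.33e-05). SNORA78 was at 33.9 and 13.2, and SNORA51, SNORA71C, SNORA5C and MIR3918 were between 2.82 and 19.5 FPKM in the PIPP libraries. The near-identical entries SNAR-C3 and SNAR-C4, which cannot be told apart by short reads, were at 15.8 and 15.3 FPKM with P4 and at 53.3 and 51.6 with PIPP on day 30, and at 0 and 0 against 3.45 and 3.34 on day 4. Crossed patterns occurred as well: 8 short entries were above 0 only with PIPP on day 30 and with P4 on day 4, and 2 only with P4 on day 30 and with PIPP on day 4. A further 88 were above 0 in 1 library alone, and 34 in none of the 4. Every short entry above 0 in both libraries of 1 conjugate alone passed the test, 3 with P4 and 8 with PIPP. Their p-values thus restate that pattern, and the crossed patterns, at 8 and 2, were about as frequent.

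**Figure D2:**
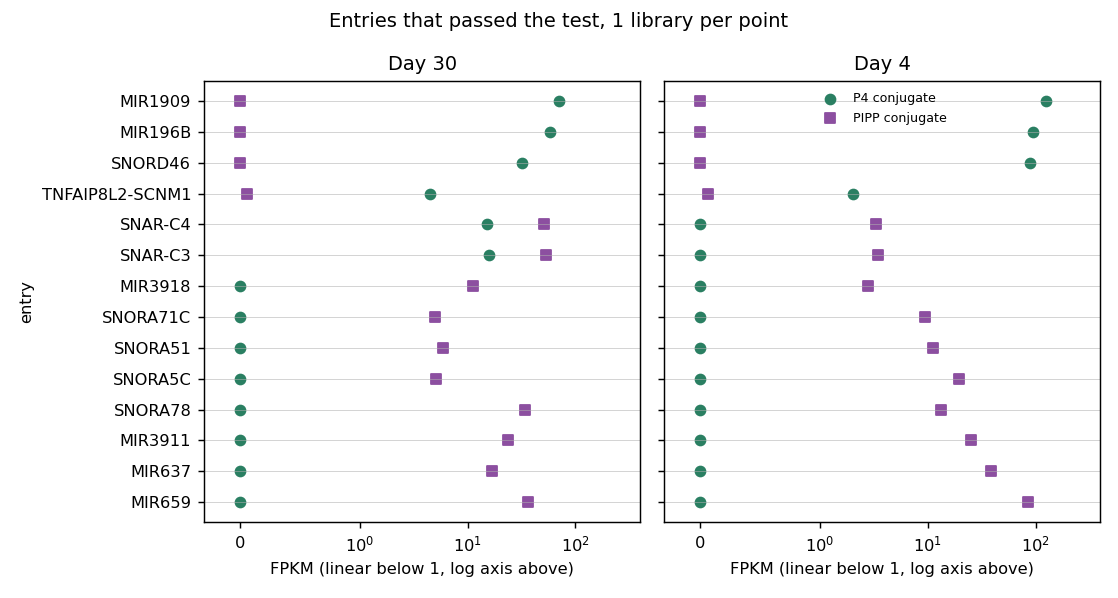
FPKM of the 14 entries that passed the test, with P4 (circles) and PIPP (squares), on day 30 and day 4. The axis is linear below 1 and logarithmic above. In 11 entries both libraries of 1 conjugate are at 0.

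On day 30 the FPKM of short entries in the 4 libraries of that day stood in ratios of small whole numbers, once the step between libraries was divided out, with a tolerance of 0.01 on the log2 scale. The smallest numbers that give those ratios were 1 fragment with P4 against 0 with PIPP for MIR1909, MIR196B and SNORD46. They were 0 against 2 for MIR659 and MIR3911, 0 against 1 for SNORA51 and SNORA71C, and 0 against 5 for SNORA78. The true numbers may be any multiple of these. MIR637 and SNORA5C were above 0 in the PIPP library alone on that day and so gave no ratio. For SNAR-C3, SNAR-C4 and MIR3918 no such numbers up to 6 were found. The genes around MIR1909, MIR637, MIR196B and MIR659 did not pass the test. REXO1, an exonuclease gene that holds MIR1909, was at 8.22 and 6.96 FPKM with P4 and PIPP on day 30 and at 20.7 and 21.0 on day 4, and DAPK3, a kinase gene that holds MIR637, at 29.6 and 26.4 and then at 75.6 and 72.3. HOXA9, a homeobox gene that holds MIR196B, was at 20.6 and 17.3 on day 30 and at 11.8 and 18.6 on day 4, where it was lower with P4 and the hairpin entry higher. ANKRD54, which holds MIR659, was at 13.9 and 15.8 and then at 21.4 and 22.3.

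The mature microRNAs of these hairpins are shown because 6 of the 14 entries that passed were microRNA hairpins. They are from RefSeq (GRCh38.p14), with the seed, bases 2 to 8, in capitals. No 2 of the 9 share a seed.
hsa-miR-1909-3p: cGCAGGGGccgggugcucaccg
hsa-miR-1909-5p: uGAGUGCCggugccugcccug
hsa-miR-196b-3p: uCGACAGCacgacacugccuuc
hsa-miR-196b-5p: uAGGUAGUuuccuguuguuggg
hsa-miR-659-3p: cUUGGUUCagggagggucccca
hsa-miR-659-5p: aGGACCUUcccugaaccaagga
hsa-miR-3911: uGUGUGGAuccuggaggaggca
hsa-miR-637: aCUGGGGGcuuucgggcucugcgu
hsa-miR-3918: aCAGGGCCgcagauggagacu

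The only other entry that passed was TNFAIP8L2-SCNM1, a read-through of 2 neighbouring genes. It was at 4.53 FPKM with P4 and 0.0592 with PIPP on day 30 and at 2.03 and 0.069 on day 4, a mean log2 difference of 1.96 ± 0.26 (SE; adjusted p = 0.0232, limma). SCNM1, the splicing factor gene whose exons it contains, was at 11.7 and 15.1 and then at 9.84 and 10.9. The sum of both entries was 16.2 with P4 and 15.2 with PIPP on day 30, and 11.9 and 11.0 on day 4. The sums stood closer together between conjugates than the read-through entry did. This had to be so, since SCNM1 was the larger entry and its ratio was the smaller one. A shift of reads between the entries was not tested.

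The sums also stood closer together for C17orf61-PLSCR3, the longer gene with the lowest p-value, which lies on chromosome 17 (GRCh37, 7293053 to 7307416). It was at 16.1 FPKM with P4 and 2.90 with PIPP on day 30 and at 26.2 and 13.9 on day 4 (log2 difference 1.51 ± 0.27, SE; adjusted p = 0.121, limma). PLSCR3, a phospholipid scramblase gene that shares its last exons, went the other way, with 10.4 and 25.2 on day 30 and 10.7 and 20.7 on day 4 (-1.04 ± 0.21, SE; adjusted p = 0.29, limma). Their sum was 26.4 with P4 and 28.1 with PIPP on day 30, and 36.9 and 34.6 on day 4. Reads from shared exons cannot be assigned to 1 of the 2 entries with certainty. Other read-through entries among the named longer genes were MUTED-TXNDC5 and ABHD14A-ACY1, higher with P4, and HSPE1-PHOCN, higher with PIPP. On day 30, ABHD14A-ACY1 was at only 0.432 FPKM with P4 and at 1.65e-14 with PIPP.

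No longer gene passed the test, whose borrowed spread includes that of short entries. Fitted alone, with the spread taken as equal for all genes, 3 of the 9769 longer genes passed. Several of the longer genes named had small ratios. Larger log2 ratios, with P4 higher, were those of PRR4 (0.60 on day 30 and 0.78 on day 4), C9orf9 (0.46 and 0.62) and CPLX1 (0.52 and 0.43). Their adjusted p was near 1 (limma), and PRR4 was at only 0.855 and 0.161 FPKM with P4 and PIPP on day 4. Among genes higher with P4 on both days were PPDPF (243 and 175 FPKM with P4 and PIPP on day 30, 486 and 382 on day 4), ZYX, the focal adhesion protein zyxin (147 and 105, then 550 and 450), CAPNS1, the calpain small subunit (127 and 89.0, then 213 and 175), and RAB11B, a GTPase of recycling endosomes (32.1 and 23.2, then 84.6 and 69.5). Their mean log2 differences were 0.38 to 0.42, with standard errors of 0.17 to 0.18 and adjusted p near 1 (limma). NDRG1, a hypoxia-induced gene, was at 10.4 and 7.25 and then at 22.1 and 17.5 (0.41 ± 0.20, SE). These genes were named for a P4 value above PIPP on both days, so that agreement is not a result.

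Among genes higher with PIPP on both days, PILRB, an immune-type receptor, was at 49.2 and 71.4 FPKM with P4 and PIPP on day 30 and at 6.71 and 12.1 on day 4 (-0.64 ± 0.18, SE; adjusted p near 1, limma). NMU, a neuropeptide gene, was at 3.26 and 5.84 and then at 3.68 and 6.22. GOLGA8A and GOLGA8B, near-identical golgin genes that share reads, were at 24.5 and 33.2 and at 16.6 and 22.8 on day 30, and at 0.373 and 1.36 and at 0.362 and 1.23 on day 4. HRK, an activator of apoptosis, was at 4.94 and 6.43 and then at 1.18 and 2.40. The levels of several of these genes on day 4 were low enough that the ratio rests on few fragments: the 95% counting half-width for GOLGA8A was 0.60 on the log2 scale, against 0.08 on day 30.

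KDM1A, the gene of LSD1 itself, was at 45.6 and 39.4 FPKM with P4 and PIPP on day 30 and at 69.9 and 72.1 on day 4 (0.09 ± 0.17, SE; 95% interval -0.29 to 0.48, limma). Differences within that interval remain possible with these 4 libraries. It is not adjusted for the number of genes and is not a limit of detection: C17orf61-PLSCR3, with a log2 difference of 1.51, did not pass either. SERPINB1, a protease inhibitor gene, was at 28.8 and 21.4 and then at 20.3 and 23.0, and DLGAP5, a mitotic spindle protein gene, at 2.00 and 1.75 and then at 0.885 and 1.77. For both, P4 was higher on day 30 and PIPP on day 4. Over the 9769 longer genes, the median half-width of the 95% interval was 0.49, and the 95th percentile of the absolute log2 difference was 0.307. These intervals rest in part on the spread of short entries, so they are not each gene's own uncertainty.

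The ratio of the conjugates followed the GC content of the transcript on both days, in opposite directions. With the genes in 5 equal bins, in the bin of lowest GC content (27.3% to 41.4%), the median ratio was 0.13 on day 30 and -0.34 on day 4. In the highest bin (59.0% to 87.9%) it was -0.11 and 0.19. Of the lowest bin, 72.3% of genes were above 0 on day 30 and 9.42% on day 4, and of the highest 28.7% and 87.5%. Across the 10133 genes with a transcript, Spearman's rho between GC content and the ratio came to -0.40 (day 30) and 0.68 (day 4), as a description over genes of 4 libraries. With transcript length it was 0.23 and -0.39, and 0.14 and -0.28 after subtraction of GC content. The ratios of the 2 days had a rho of -0.30 across the 10865 genes, and of -0.07 across the 10133 with a transcript after subtraction of the median in 20 bins of GC content. Whether the relations with GC content and length come from the libraries or from the cells cannot be told apart with 1 library per conjugate and day.

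**Figure D3:**
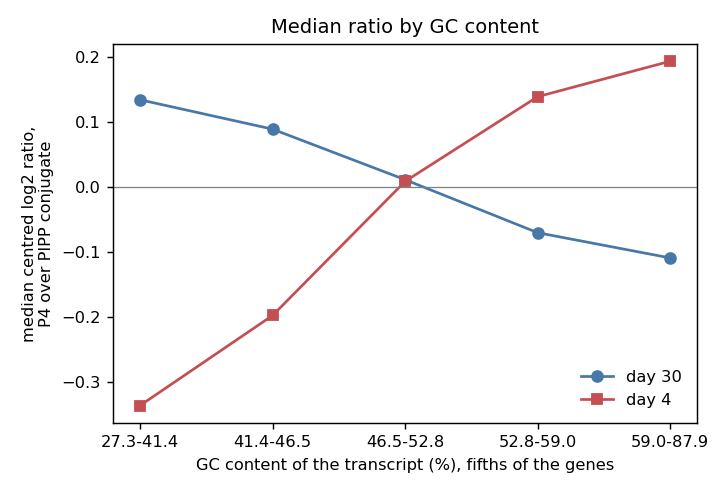
Median centred log2 ratio (P4 over PIPP conjugate) of the genes in each of 5 equal bins of transcript GC content, on day 30 (circles) and day 4 (squares). It goes from 0.13 to -0.11 on day 30 and from -0.34 to 0.19 on day 4.

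Since the polyamides were designed for different sequences, genes were also split by the 300 bases around their start, from 250 before to 50 after (RefSeq, GRCh38.p14, 8128 genes). Of these, 45.3% held at least 6 bases in a row that are each A or T, on either strand, and 18.0% a CG with 2 bases on each side that are each A or T. The 2 sequences overlapped in 10.6% of promoters. Genes with the run of A or T had a median ratio of 0.02 on day 30 and -0.04 on day 4, against 0.01 and 0.01 without it. Genes with the CG sequence had 0.03 and -0.05, against 0.01 and -0.00 without it. Within 5 equal bins of promoter GC content, the difference with against without the run of A or T was between -0.02 and 0.02 on day 30 and between -0.093 and -0.0048 on day 4, and for the CG sequence between -0.02 and 0.04 and between -0.05 and 0.06. All of these lie within 0.1 of 0, less than the change with GC content of the transcript. The largest, for the run in the lowest bin on day 4, came from medians of -0.067 with it and 0.026 without. After subtraction of transcript GC content these were 0.012 and 0.038. The paper places all regions that gained histone acetylation on day 30 with the P4 conjugate outside promoters, and most of those with PIPP. The sequence of such regions was not examined here, so the split by promoter does not cover them.

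The promoters of the first 2 named genes in each direction that have an entry in the promoter table are shown to let both sequences be read off, which passed over SNORA59B and PILRB. Capitals mark runs of 6 or more bases that are A or T, and none of the 4 holds the CG sequence. C17orf61-PLSCR3 and PRR4 were higher with P4, and PLSCR3 and NMU with PIPP.
C17orf61-PLSCR3, chr17:7404082-7404381, minus strand: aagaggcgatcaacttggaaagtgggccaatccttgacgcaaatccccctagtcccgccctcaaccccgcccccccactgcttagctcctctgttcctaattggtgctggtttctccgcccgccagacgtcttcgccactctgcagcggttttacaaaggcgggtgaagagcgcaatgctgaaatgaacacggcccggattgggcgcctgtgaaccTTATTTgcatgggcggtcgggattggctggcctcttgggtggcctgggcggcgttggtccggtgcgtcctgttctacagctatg
PRR4, chr12:10849426-10849725, minus strand: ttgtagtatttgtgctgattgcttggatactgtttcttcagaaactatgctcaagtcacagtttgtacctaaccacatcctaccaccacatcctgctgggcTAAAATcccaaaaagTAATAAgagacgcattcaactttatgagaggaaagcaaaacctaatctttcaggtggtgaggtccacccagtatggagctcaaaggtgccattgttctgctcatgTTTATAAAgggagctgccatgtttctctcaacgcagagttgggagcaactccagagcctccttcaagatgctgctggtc
PLSCR3, chr17:7394476-7394775, minus strand: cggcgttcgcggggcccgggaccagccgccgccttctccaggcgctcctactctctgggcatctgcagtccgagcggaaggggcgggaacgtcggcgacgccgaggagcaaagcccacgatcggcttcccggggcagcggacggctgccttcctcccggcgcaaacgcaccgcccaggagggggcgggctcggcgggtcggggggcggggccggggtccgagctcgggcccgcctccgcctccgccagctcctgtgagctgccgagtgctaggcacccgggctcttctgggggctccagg
NMU, chr4:55636744-55637043, minus strand: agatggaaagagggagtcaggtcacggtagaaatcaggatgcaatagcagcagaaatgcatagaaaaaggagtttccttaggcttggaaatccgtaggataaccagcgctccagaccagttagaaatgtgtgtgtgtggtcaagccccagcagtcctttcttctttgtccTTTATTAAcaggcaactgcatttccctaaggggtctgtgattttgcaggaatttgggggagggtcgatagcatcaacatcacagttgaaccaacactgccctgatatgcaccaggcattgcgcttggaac
PRR4 holds 3 such runs, C17orf61-PLSCR3 and NMU 1 each and PLSCR3 none, so one gene higher with PIPP and both higher with P4 hold the run. A match of letters is not a binding site.

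The gene lists are given by counts and medians of the centred ratios, beside 0.00 on each day and 4 and 10 genes passed over all genes tested. Apart from small nucleolar RNAs, of which 1 passed with P4 higher and 4 with PIPP higher, no member of the other 21 lists passed (limma). Of the 22 lists, 14 had medians of opposite sign on the 2 days. Of all genes tested, 30.7% were above 0 on day 30 only and 30.7% on day 4 only. Genes of hypoxia and glycolysis had medians of 0.12 and 0.21. Of 32 members, 14 were above 0 on both days and 4 below on both, against 19.3% and 19.3% of all genes tested. PGK1, a glycolytic enzyme, was at 87.7 and 56.8 FPKM with P4 and PIPP on day 30 and at 346 and 316 on day 4 (0.39 ± 0.18, SE), and ADM, the adrenomedullin gene, at 9.50 and 12.7 and then at 6.30 and 7.38. Neither passed the test.

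Genes of the G2 and M phases had medians of -0.10 on day 30 and -0.24 on day 4. Of 46 members, 17 were below 0 on both days and 3 above, against 19.3% and 19.3% of all genes tested. MKI67, a marker of dividing cells, was at 6.21 and 7.19 and then at 10.9 and 20.7 (-0.51 ± 0.22, SE), and ANLN, which acts in cytokinesis, at 4.34 and 4.75 and then at 1.80 and 4.99. The list has a low median GC content of 42.8%, and after subtraction of GC content its medians were -0.13 and -0.03. Genes of the S phase had medians of 0.18 and -0.20, and of 0.10 and 0.02 after subtraction of GC content. Among them ATAD2 was at 19.2 and 15.2 and then at 3.76 and 8.43 and MCM2, a helicase subunit, at 30.9 and 24.2 and then at 79.1 and 72.0.

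The LSD1 and CoREST genes had medians of 0.12 and -0.08 over 14 members. HDAC2, a deacetylase of the complex, was at 12.5 and 10.9 FPKM with P4 and PIPP on day 30 and at 2.14 and 3.57 on day 4. NRF2 targets had medians of 0.11 and 0.08. ERK output genes had 0.09 and 0.12, with FOSL1, an AP-1 subunit, at 412 and 332 and then at 536 and 454. Interferon-response genes had 0.02 and 0.16, and -0.07 and 0.04 after subtraction of GC content. Among them IFITM3, a restriction factor, was at 272 and 233 and then at 374 and 313. None of these members passed. The 78 cytosolic ribosomal protein genes had medians of -0.13 and 0.18 and the 21 clustered histone genes -0.22 and 0.21, opposite on the 2 days.

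**Figure D4:**
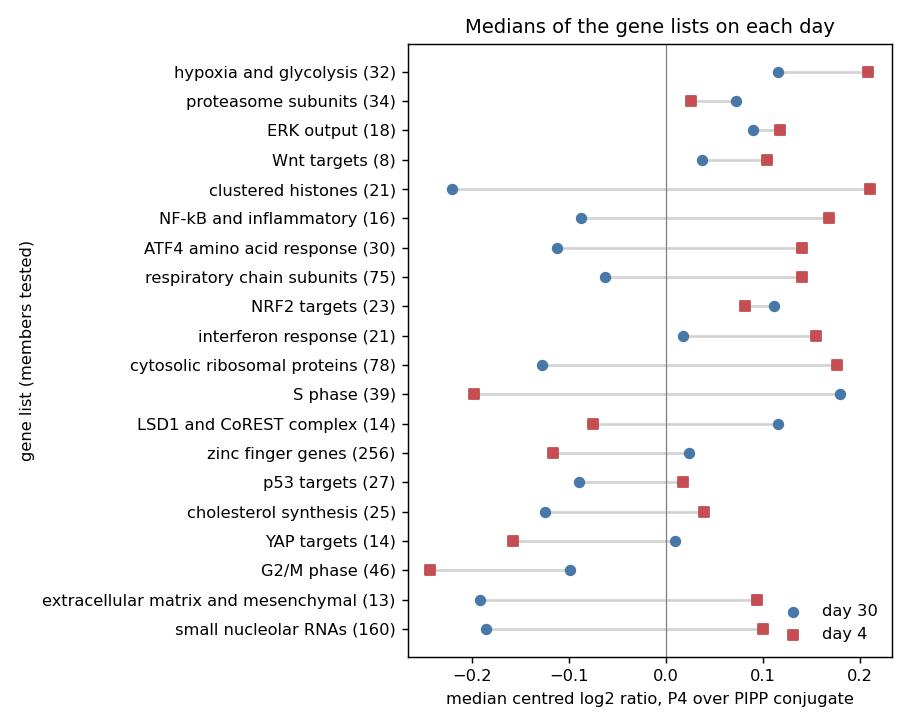
Median centred log2 ratio (P4 over PIPP conjugate) of each gene list with at least 5 tested members, on day 30 (circles) and day 4 (squares), with the number of members tested. Lists with points on both sides of 0 have opposite signs on the 2 days, as for S phase (0.18 and -0.20).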

How the data were processed

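RNA libraries of RKO cells were made by the authors with a stranded mRNA kit. The written methods name TopHat and Cufflinks, and the submitters' processing notes list HISAT2 2.2.1.0, Cufflinks and the build hg19. The annotation is not given in the sources used here. The deposited values are FPKM per gene, normalized by the authors by transcript length and mapped fragments, with no counts. A value of exactly 0 may come from a failed estimate.

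From these, log2(FPKM + 1) was compared between conjugates within each day after centring on the median. Of 25594 entries, 90 with a repeated name were left out, and genes with a mean FPKM of at least 1 were tested with limma 3.58.1 (R 4.3.3, eBayes with a trend, day as block, Benjamini-Hochberg adjustment over 10865 genes). The model was run on simulated data, but the outcome is not given here. No conclusion on the calls among short entries, whose ratios spread more widely than those of longer ones, is drawn from that run. The block pairs libraries of the same day, which the labels give, and there is 1 library per conjugate and day. p-values rest on the change between days (1 residual degree of freedom) and on a spread moderated from all genes (8.55 prior degrees of freedom), and nothing states that days were separate cultures.

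Transcript length, GC content and position came from GENCODE 44 on GRCh37 for 10133 genes (93.3%), and promoters from RefSeq for 74.8%. Depth was estimated from low FPKM of genes with 1 transcript above 1500 nt. Counting half-widths cover counting error only and hold for the ratio without a pseudocount.

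Named were the 12 genes in each direction with the largest smaller ratio of the 2 days and the same sign, the 3 of shorter transcripts, the 2 ends of each of 22 lists, and KDM1A, SERPINB1 and DLGAP5. Hosts of short entries and single genes beside read-throughs were chosen after their values were seen. The members and lists were chosen with earlier results of these data known. Alternatives changed the pseudocount, centring, filters, GC content, block, trend and libraries, and 1 was added after the data were seen. Some items are not reported here.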

Additional observations from a re-analysis of the deposited data

Results flagged for a closer look

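Medians of the centred log2 ratio (P4 over PIPP conjugate) had opposite signs on the 2 days in 14 of the 22 gene lists. Single genes did so widely, with 30.7% of all genes tested above 0 on day 30 only and 30.7% on day 4 only. The difference between days was not tested, since there was 1 library per conjugate and day. On day 30 and then on day 4 they were 0.12 and -0.075 for LSD1 and CoREST, 0.18 and -0.20 for S phase, and 0.0098 and -0.16 for YAP targets. For zinc finger genes they were 0.023 and -0.12. Lists lower with P4 on day 30 and higher on day 4 were NF-kB and inflammatory genes (-0.087 and 0.17), cholesterol synthesis (-0.12 and 0.039), the ATF4 response (-0.11 and 0.14), p53 targets (-0.090 and 0.017), extracellular matrix genes (-0.19 and 0.094) and clustered histones (-0.22 and 0.21). So were ribosomal proteins (-0.13 and 0.18), respiratory chain subunits (-0.063 and 0.14), small nucleolar RNAs (-0.19 and 0.10, where the second value is only the centring constant of day 4) and the 4 epithelial markers tested (-0.037 and 0.18). After subtraction of GC content the signs were the same on both days for S phase (0.10 and 0.024), extracellular matrix genes (-0.17 and -0.053), zinc finger genes (-0.00098 and -0.034) and epithelial markers (0.042 and 0.13).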

How the results depend on the processing

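The 14 genes that passed (4 higher with P4, 10 with PIPP) depended on the model. Without centring and with no replicate block (day left out) it was 0 (67 and 13 genes at an unadjusted p under 0.05, limma). Quantile normalization gave 2 (2 and 0), 6 libraries with NCD38 gave 3 (2 and 1), transcripts of at least 500 nt gave 3 (1 and 2), no filter on low FPKM gave 7, 4 of them higher with PIPP, and subtraction of GC content gave the same numbers. The latter tested only the 10133 genes with a transcript, and 10 of the 14 were among them. SNORD46, MIR3911 and MIR637 did not pass with 6 libraries (adjusted p near 1), without centring (0.257, 0.0954 and 0.275) or with quantile normalization (0.107, 0.0608 and 0.107), with log2 differences of about the same size. Requiring an FPKM of at least 1 in all 4 libraries gave 32, 23 of them higher with P4, of which 21 had opposite signs on the 2 days, and subtraction of GC content with longer transcripts, chosen after seeing the data, gave 14 higher with P4 and 4 with PIPP. In both, as with longer transcripts alone, limma took the spread as equal for all genes, so the change between days of a single gene did not count. Among these calls were C17orf61-PLSCR3 and PLSCR3. Leaving out 1 of 6 libraries gave 14 to 168 genes (4 to 97 higher with P4, 10 to 84 with PIPP), with 88 without P4 on day 30, 74 without P4 on day 4, 168 without PIPP on day 30 and 129 without PIPP on day 4. There the lone library is assumed to vary like the others, and the spread was again taken as equal.

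The 11 and 27 genes 1.5-fold apart on both days became 4 and 8 with an FPKM of at least 1 in all 4 libraries, 2 and 3 with longer transcripts, and 1 and 1 with GC content subtracted as well. With PIPP higher they were 16 with GC content subtracted and 45 with a pseudocount of 0.1. Day 30 alone gave 156 and 206, and day 4 alone 154 and 564. Subtraction of GC content put the medians of the bins of lowest and highest GC content at 0.00 by construction. On day 4 the lowest bin was at -0.51 with a pseudocount of 0.1, -0.14 with 5 and -0.18 with quantile normalization, and the highest at 0.088 with no filter. For these medians, a move of up to 0.1 was taken as none. Leaving out 1 of 6 libraries turned the sign of the log2 difference of genes that had not passed, C9orf9 (-0.13 to 1.21), CPLX1 (-0.074 to 1.02), DLGAP5 (-0.64 to 0.23), KDM1A (-0.075 to 0.26), MUTED-TXNDC5 (-0.11 to 1.95), SERPINB1 (-0.033 to 0.30) and SNORA59B (-2.41 to 0.26). The proteasome median turned to -0.0021 with quantile normalization. Causes were not tested.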
